A study of Homo sapiens with 4 samples.

Results

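The transcription factor AP-1 and its companions among the immediate early genes were followed through 10 genes: FOS, FOSB, FOSL1, FOSL2, JUN, JUNB, JUND, EGR1, IER2 and ATF3. They were chosen by name and taken from the deposited tables through their RefSeq accessions, and all 10 were found among 22985 named genes, in 16 transcript entries. The choice was made with earlier results of these data known. The measurements are total RNA, depleted of ribosomal RNA, from 2 human prostate cancer cell lines with 2 libraries each. LNCaP came from a lymph node metastasis and responds to androgen, although its label calls it primary cancer, and C4-2 is an LNCaP subline selected in castrated mice and labelled CRPC, castration-resistant prostate cancer. Both lines were grown in RPMI 1640 with charcoal-stripped, steroid-depleted serum, and no further treatment, genotype or time is labelled.

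AP-1 is a dimer of proteins with a basic region and a leucine zipper (bZIP). JUN proteins pair with each other or with FOS proteins, FOS proteins need a JUN partner, and the dimers bind the sequence TGANTCA, while ATF3 and its relatives favour the related sequence TGACNTCA. Many of the genes are immediate early genes: growth factors, stress and serum switch them on within minutes through kinases that act on factors already present, such as serum response factor at the CArG box, and their mRNAs then decay quickly. In prostate epithelium AP-1 proteins act beside the androgen receptor at enhancers.

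The data of each sample are stored under the name of the other cell line. Groups follow the sample titles and cell line labels, and every direction below would turn round if the stored names were right. The libraries labelled LNCaP held 58925680 and 70459588 sense tags in exons of named genes, and those labelled C4-2 held 163126630 and 119080520. Relative to the total by which the authors divided their RPKM (reads per kilobase of exon and per 1000000 tags), these tags made up 31.03% and 35.65% in LNCaP and 67.67% and 69.43% in C4-2, so the share of tags in exons differed between the lines. Markers of prostate luminal cells were present in both lines (summed level 2761 and 2790 CPM, or sense tags per 1000000, in LNCaP against 2875 and 2825 in C4-2), with KLK3 at 533.0 and 557.2 CPM in LNCaP and at 6.14 and 6.23 in C4-2. The T cell gene CD3E and the collagen gene COL1A2 had 0 tags in each library, which allows up to 0.023 CPM in LNCaP and 0.011 CPM in C4-2 (3 tags over a line, counting error only). Other markers of these lists were detected. COL1A1 had 6.8 and 8.2 CPM in LNCaP and 2.7 and 2.7 in C4-2, and COL3A1 had 0.92 and 1.4 against 3.0 and 3.0. VWF had 4.2 and 4.1 CPM against 3.5 and 3.3, and LYZ had 1.6 and 1.6 against 0.81 and 0.87. The 6 fibroblast, 6 immune and 4 endothelial markers summed to 2.27 to 11.2 CPM per list and library.

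The promoters show which of the genes carry binding sequences of these factors close to their start. The 300 bases before the annotated start of the transcript entry used for each gene were read from hg19 and searched on both strands for 4 motifs: the CArG box, TGANTCA, TGACNTCA and GCGNGGGCG, a sequence bound by EGR1. A CArG box lay before 3 members (FOS, FOSB and EGR1) and before 1.35% of 22985 genes, TGANTCA before FOSL2 and 6.40% of genes, TGACNTCA before JUND and 7.10%, and GCGNGGGCG before EGR1 and 10.69%. No 2 of these matches overlap. The 5 windows with a match are given 5′ to 3′ on the strand of the gene in hg19, with each match in capitals, because these 5 genes fall on both sides of the levels reported next.
FOS, chr14:75745181-75745480, plus strand: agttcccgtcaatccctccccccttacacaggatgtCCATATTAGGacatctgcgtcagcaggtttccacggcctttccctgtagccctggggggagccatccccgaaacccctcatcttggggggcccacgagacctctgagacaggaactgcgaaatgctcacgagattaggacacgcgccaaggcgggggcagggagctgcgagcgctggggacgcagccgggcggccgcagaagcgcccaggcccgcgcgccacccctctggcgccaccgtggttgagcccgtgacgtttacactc
FOSB, chr19:45970953-45971252, plus strand: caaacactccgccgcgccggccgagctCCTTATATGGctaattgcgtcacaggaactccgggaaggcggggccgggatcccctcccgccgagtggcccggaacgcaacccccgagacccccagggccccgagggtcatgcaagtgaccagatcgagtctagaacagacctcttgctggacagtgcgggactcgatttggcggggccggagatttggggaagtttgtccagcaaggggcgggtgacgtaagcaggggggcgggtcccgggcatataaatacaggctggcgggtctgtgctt
EGR1, chr5:137800881-137801180, plus strand: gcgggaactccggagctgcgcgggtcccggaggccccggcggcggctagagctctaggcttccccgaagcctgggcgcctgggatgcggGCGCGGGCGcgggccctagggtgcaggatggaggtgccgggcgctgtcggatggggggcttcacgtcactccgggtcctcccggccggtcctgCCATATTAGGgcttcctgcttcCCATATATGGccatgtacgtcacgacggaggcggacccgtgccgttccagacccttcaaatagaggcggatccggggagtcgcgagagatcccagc
FOSL2, chr2:28615479-28615778, plus strand: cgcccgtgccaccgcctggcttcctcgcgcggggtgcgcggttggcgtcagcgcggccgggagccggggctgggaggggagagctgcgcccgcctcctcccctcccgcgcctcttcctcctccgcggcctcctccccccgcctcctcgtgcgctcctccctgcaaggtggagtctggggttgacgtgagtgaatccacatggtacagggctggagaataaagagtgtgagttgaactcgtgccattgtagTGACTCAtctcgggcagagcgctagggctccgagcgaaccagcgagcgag
JUND, chr19:18392433-18392732, minus strand: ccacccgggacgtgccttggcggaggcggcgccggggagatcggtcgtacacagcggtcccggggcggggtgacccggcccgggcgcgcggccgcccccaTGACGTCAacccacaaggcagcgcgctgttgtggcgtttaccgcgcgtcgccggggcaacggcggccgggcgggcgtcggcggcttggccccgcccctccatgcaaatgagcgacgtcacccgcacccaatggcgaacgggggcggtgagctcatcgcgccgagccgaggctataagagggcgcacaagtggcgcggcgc
EGR1 holds 2 CArG boxes, at bases -118 to -109 and -96 to -87 from the start, and that of FOS, at -264 to -255, has the same letters as the first of them. FOSB has its box at -273 to -264. None of the 4 motifs was in the windows of JUN, JUNB, FOSL1, IER2 or ATF3, which says only that these letters are not in these bases.

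The lines were compared to ask how the steady level of AP-1 and immediate early mRNAs differs between the castration-resistant subline and its parent. Of the 10 genes, 7 were higher in the libraries labelled C4-2 and 0 were lower (edgeR quasi-likelihood test, Benjamini-Hochberg adjusted p under 0.05), with JUND, JUN, FOS and IER2 at log2 fold changes of 0.94 to 1.05 and FOSL2, JUNB and ATF3 at 0.43 to 0.69. The count of members lower was 0 also at an unadjusted p under 0.05 and by DESeq2. FOSB and EGR1 did not pass the test, and FOSL1 had too few tags to be tested. In the same comparison 40.2% of 15975 genes tested were called higher, 39.7% were called lower and 80.0% were called in either direction, so a call by itself is common here. Without overlap between the lines, 7 of the 9 members tested lay higher in C4-2 and FOSB lower. Such a separation was found for 89.9% of all genes tested, and with C4-2 higher for 44.6%. The median log2 fold change was 0.69 over the 9 members tested and -0.011 over all genes tested, whose quartiles were -0.72 and 0.57. EGR1 passed the filter on low counts in only 1 of the libraries labelled LNCaP, and the other 8 tested members passed it in all 4 libraries. Levels are CPM after TMM scaling, edgeR's scaling to the typical gene, and differences are C4-2 over LNCaP as labelled. In bulk RNA, a change in every cell and a change in a fraction of the cells cannot be told apart.

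Among the JUN genes, JUN itself encodes a transactivating partner in AP-1 dimers (hg19 chromosome 1, 59246463 to 59249785, minus strand, a gene of a single exon). It had 28.7 and 29.6 CPM in the libraries labelled LNCaP and 59.2 and 57.5 CPM in those labelled C4-2. Both C4-2 libraries lay above both LNCaP libraries, and replicates differed by little. The log2 fold change was 1.0 ± 0.052 (SE, adjusted p = 6.7e-07). JUND, the JUN gene that is least dependent on stimulation (chromosome 19, 18390563 to 18392432, minus strand), had 22.6 and 21.0 CPM in LNCaP and 46.1 and 43.9 CPM in C4-2. Its log2 fold change of 1.05 ± 0.061 (adjusted p = 1.2e-06) was exceeded by 10.9% of genes tested, and that of JUN by 11.8%. JUNB, a JUN protein that can restrain JUN (chromosome 19, 12902310 to 12904125, plus strand), had 11.4 and 12.5 CPM in LNCaP and 17.2 and 15.3 CPM in C4-2. Its groups did not overlap either, but the log2 fold change was smaller, 0.45 ± 0.084 (adjusted p = 0.0014).

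**Figure D1:**
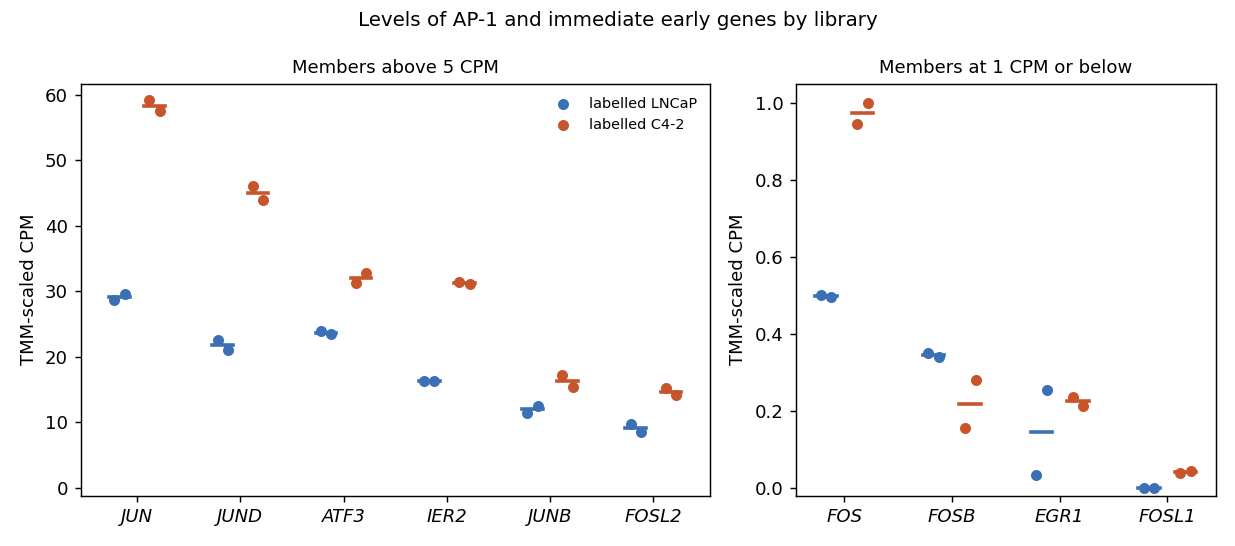
Level of each of the 10 genes (TMM-scaled CPM, linear axes from 0) in each library, points being libraries and bars the means of 2. For JUN and JUND both C4-2 libraries lie above both LNCaP libraries, and EGR1 in LNCaP spans 0.033 to 0.25 CPM.

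The FOS genes were far less abundant, apart from FOSL2. FOSL2, which encodes the FOS-related protein Fra-2 and lacks the strong transactivation domain of FOS (chromosome 2, 28615779 to 28637516, plus strand), had 9.67 and 8.56 CPM in LNCaP and 15.2 and 14.1 CPM in C4-2. The lines were separate, with a log2 fold change of 0.69 ± 0.085 (adjusted p = 0.00011). FOS, the prototype of the family (chromosome 14, 75745481 to 75748937, plus strand), rested on 30 and 35 tags in LNCaP and on 152 and 118 tags in C4-2, or 0.50 and 0.49 CPM against 0.95 and 1.0 CPM. At this low level it was still higher in C4-2 (log2 fold change 0.97 ± 0.21, adjusted p = 0.0033), and the ratio of its tags was 1.95 with a counting interval of 1.48 to 2.60 (exact, 95%, counting error only).

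FOSB, a partner of JUN proteins known for a truncated form that builds up in neurons, was the only member with a fitted value below 0 when all 4 libraries were used with TMM scaling, though not with library totals (chromosome 19, 45971253 to 45978437, plus strand). It had 21 and 24 tags in LNCaP and 25 and 33 tags in C4-2, which gave 0.35 and 0.34 CPM against 0.16 and 0.28 CPM. The ratio of its tags was 0.61 with a counting interval of 0.40 to 0.91, which lies below 1 for counting error only. With the spread between libraries included, the log2 fold change of -0.70 ± 0.39 did not pass the test (adjusted p = 0.13). Both deposited FOSB entries share their ends and differed by 0 to 2 tags in any library, so these data do not tell the full-length from the truncated form. FOSL1, the gene for Fra-1, a protein of invasive and stimulated cells (chromosome 11, 65659692 to 65667997, minus strand), was without a tag (0) in either LNCaP library and had 6 and 5 tags in C4-2. Its level over both C4-2 libraries, 0.039 CPM, was 1.72 times the 0.023 CPM that 0 tags allow in LNCaP. The counting interval of the C4-2 level, 0.020 to 0.071 CPM, reaches below this limit. Whether FOSL1 differs between the lines was not tested.

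More tags lay on the opposite strand of FOSL1 than on its own, 11 and 16 in LNCaP and 16 and 13 in C4-2. On that strand the nearest entry, CCDC85B, ends 585 bases before FOSL1. It had 769 and 878 sense tags in LNCaP and 10673 and 7573 in C4-2. No other entry overlaps any of the 10 genes on either strand. Opposite-strand tags were 18.3% of the tags at FOSB in C4-2 (4 and 9 tags) and 4.26% in LNCaP (0 and 2 tags), so these shares rest on few tags. At the other 8 genes they were at most 4.76% in either line.

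EGR1, a zinc finger factor induced along with FOS (chromosome 5, 137801181 to 137805004, plus strand), gave 2 and 18 tags in LNCaP and 38 and 25 tags in C4-2. In CPM that is 0.033 and 0.25 against 0.24 and 0.21, so the lines overlapped and the LNCaP libraries differed more from each other than the lines did. The counting intervals of the LNCaP libraries, 0.0040 to 0.12 CPM and 0.15 to 0.40 CPM, did not overlap. The log2 fold change was 0.57 ± 0.61 (adjusted p = 0.41). Without LNCaP replicate 1 it was -0.17 (adjusted p = 0.79), and without LNCaP replicate 2 it was 2.72 and passed the test (adjusted p = 0.0080), so that the EGR1 value rests on which LNCaP library is used.

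IER2, an immediate early gene for a small nuclear protein (chromosome 19, 13261282 to 13265718, plus strand), had 16.2 and 16.3 CPM in LNCaP and 31.5 and 31.2 CPM in C4-2. Its replicates were the closest of the abundant members, and the log2 fold change was 0.94 ± 0.054 (adjusted p = 1.1e-06). ATF3, a bZIP factor induced by stress that represses many of its targets (chromosome 1, 212781970 to 212794119, plus strand), had 23.9 and 23.5 CPM in LNCaP and 31.3 and 32.7 CPM in C4-2. The groups did not overlap, and the log2 fold change was 0.43 ± 0.055 (adjusted p = 0.00013). The 6 deposited ATF3 entries include 1 that starts upstream, at 212738676. Their tags ranged from 1338 to 1436 in LNCaP replicate 1 and from 4657 to 5028 in C4-2 replicate 1, since most of their exon sequence is common to them, and the start sites cannot be told apart.

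**Figure D2:**
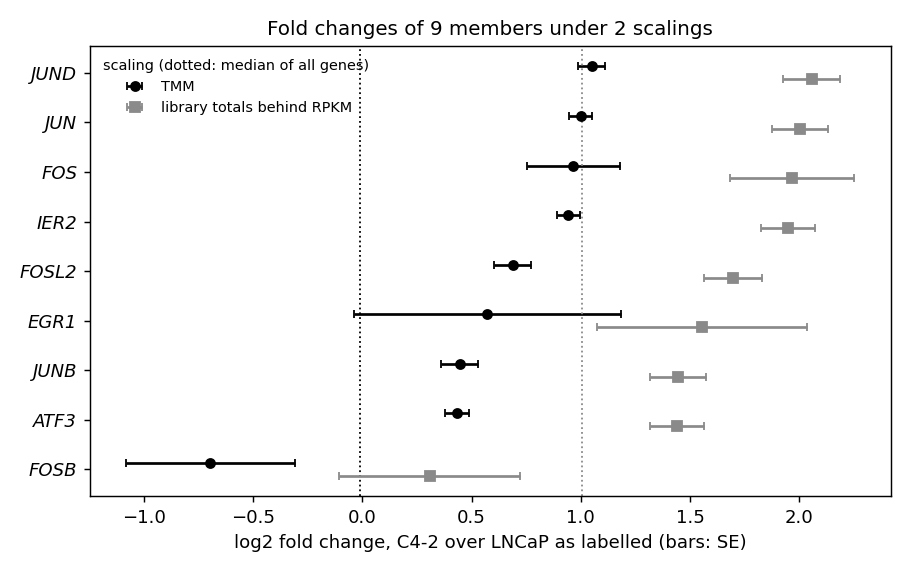
Log2 fold change (C4-2 over LNCaP as labelled) of the 9 tested members with SE bars, with TMM scaling (circles) and scaling to the library totals behind RPKM (squares), dotted lines being the median of all genes tested. Both sets of values keep about the same distance from their dotted line, at -0.011 and 1.005, and FOSB lies above 0 with library totals.

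The values above are set against the typical gene. Dividing instead by the library totals behind RPKM moved the median log2 fold change of all genes tested from -0.011 to 1.005 and gave 11626 genes higher and 1664 lower, or 87.5% of calls higher against 50.3%. The median of the members moved from 0.69 to 1.70, FOSB turned to 0.31 (adjusted p = 0.49) and EGR1 passed at 1.55 (adjusted p = 0.0016), so 8 of 10 members were then called higher.

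Within a library, the order of the genes by deposited RPKM does not depend on scaling between libraries. In LNCaP the mean RPKM was 3.92 for JUND, 3.34 for ATF3, 2.96 for JUN, 2.68 for IER2, 2.22 for JUNB and 0.77 for FOSL2. Each LNCaP library alone gave this order, with ATF3, JUN and IER2 at 3.168, 2.732 and 2.507 in replicate 1 and at 3.521, 3.195 and 2.861 in replicate 2. Taken over the 2 libraries, the ranges overlapped between ATF3 and JUN and between JUN and IER2. The other neighbours in this order were separate. In C4-2 the order was JUND at 16.3, JUN at 11.9, IER2 at 10.4, ATF3 at 9.09, JUNB at 6.05 and FOSL2 at 2.49 RPKM, with no overlap between neighbours. FOS followed at 0.078 in LNCaP and 0.31 in C4-2, and FOSB, EGR1 and FOSL1 stayed at or below 0.039, 0.048 and 0.016 RPKM on average. The ranges of FOSB and EGR1 over the 2 libraries overlapped in both lines. FOSB lay above EGR1 in each LNCaP library, but in C4-2 only in replicate 2. The place of ATF3 depends on the entry used. Its entries ran from 3.168 to 3.817 RPKM in LNCaP replicate 1 and from 3.521 to 4.196 in replicate 2. In C4-2 they ran from 8.738 to 10.45 in replicate 1 and from 9.436 to 11.312 in replicate 2. The 3 genes with a CArG box were 3 of the 4 lowest members in each line, but FOSL1, the lowest, has none in its window. A relation between the motif and the level was not tested.

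Measured against all 22985 named genes, JUND exceeded 76.6% and 75.3% of them in RPKM in LNCaP and 85.0% and 84.5% in C4-2. FOS exceeded 38.4% and 38.2% in LNCaP and 44.5% and 44.8% in C4-2. The JUN family summed to 9.82 and 10.97 times the FOS family in LNCaP and to 12.1 and 12.0 times in C4-2, so JUN family mRNA was in excess in every library. JUND made up 44.8% and 41.5% of the JUN family in LNCaP and 47.5% and 47.7% in C4-2, whereas JUNB made up 23.2% and 25.5% in LNCaP and 18.2% and 17.2% in C4-2. FOSL2 held between 86.3% and 88.4% of the FOS family in all 4 libraries.

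**Figure D3:**
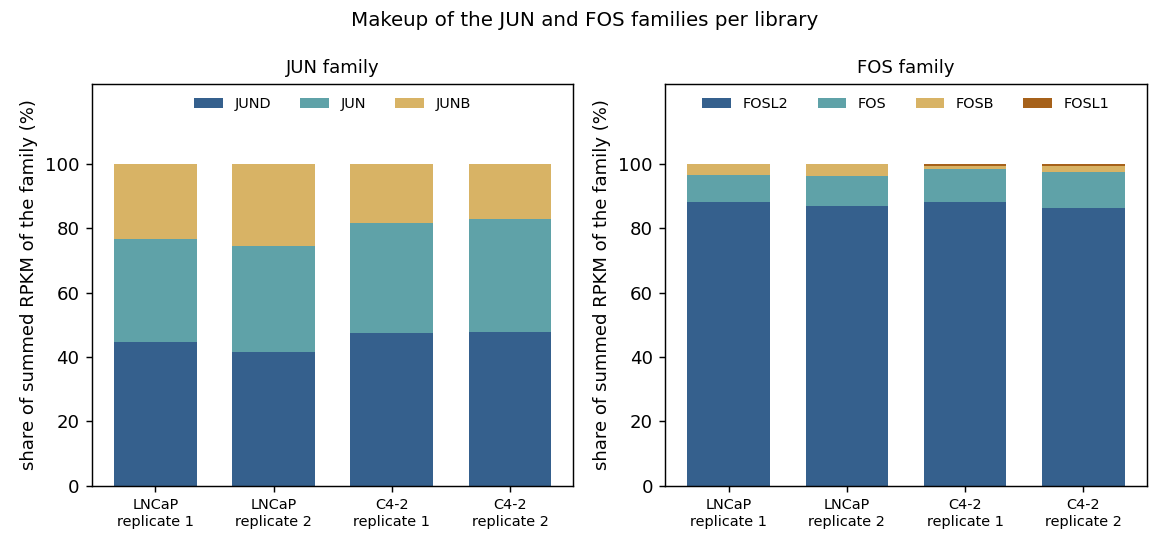
Share of each gene in the summed deposited RPKM of the JUN family (left) and the FOS family (right), in percent, for each library. JUNB takes 23.2% and 25.5% of the JUN family in LNCaP and 18.2% and 17.2% in C4-2, and FOSL2 takes 86.3% to 88.4% of the FOS family.

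Ratios of RPKM compare the members within a library. JUND over JUNB was 1.93 and 1.63 in LNCaP and 2.61 and 2.78 in C4-2, a log2 difference of 0.60. ATF3 over JUN, for the ATF3 entry used, which has the lowest RPKM of its entries, was 1.16 and 1.10 in LNCaP and 0.74 and 0.79 in C4-2. This was a log2 difference of -0.57. In both cases the lines did not overlap. JUN over JUND, by contrast, was 0.72 and 0.80 in LNCaP and 0.72 and 0.74 in C4-2 and overlapped. With 2 libraries against 2, the exact two-sided permutation test cannot go below p = 0.333, the value reached by 6 of the 7 ratios computed (0.389 after Benjamini-Hochberg adjustment), so none of these differences could pass.

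The remaining immediate early genes were mixed. Of a list of 33, 27 had enough tags to be tested. Of these, 11 were higher in C4-2, 7 were lower and 9 did not pass (median log2 fold change 0.12). Among all genes tested, 40.2% were called higher and 39.7% lower, which is also the background for the lists that follow. No list was tested as a set. PLK2, a kinase gene that is also a p53 target, had 8.72 and 8.42 CPM in LNCaP and 91.5 and 89.0 CPM in C4-2 (log2 fold change 3.40 ± 0.057, adjusted p = 4.1e-09), and the antiproliferative gene BTG2 stood at 1.83 ± 0.063. Among called genes with a mean of at least 1 CPM in either line, the lowest were NFKBIZ, which encodes a nuclear regulator of NF-kappaB, at -1.32 ± 0.12, and PPP1R15A, whose product reverses a stress-induced block of translation, at -1.32 ± 0.12. The call of PPP1R15A ended with library totals (-0.32, adjusted p = 0.069). ARC, below that level, was at -1.83 (adjusted p = 0.0013). The 6 genes not tested, the inducible genes EGR2, EGR3, EGR4, NR4A3, IER3 and CCN2, were at no more than 0.062 CPM in any library.

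Among 14 other bZIP genes, which can pair with JUN or FOS proteins or bind related sites, 5 of 13 tested were higher and 2 lower (median 0.048). MAF had 1.30 and 0.89 CPM in LNCaP and 8.85 and 9.05 CPM in C4-2, a log2 fold change of 3.05 ± 0.15 (adjusted p = 5.6e-07). MAFK, a small MAF gene without a transactivation domain, was at 11.2 and 12.2 CPM in LNCaP and at 60.9 and 33.8 CPM in C4-2, so the C4-2 libraries differed widely although both lay above LNCaP (log2 fold change 2.02 ± 0.24, adjusted p = 9.3e-05). ATF7, a close relative of ATF2, was lower at -0.85 ± 0.083. JDP2, a repressor that pairs with JUN, was at -0.21 ± 0.074 (adjusted p = 0.027), and that call ended without LNCaP replicate 2 (-0.13), without C4-2 replicate 1 (-0.20) or without C4-2 replicate 2 (-0.21), and with opposite-strand tags added (-0.18).

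Of 26 genes of the RAS, MAP kinase and serum response pathways upstream of AP-1, 14 were higher, 11 lower and 1 did not pass, the serum response factor gene SRF (median 0.30). HRAS and the MEK1 gene MAP2K1 were the highest, at 1.17 ± 0.057 and 1.15 ± 0.041. NRAS, with 185.6 and 172.8 CPM in LNCaP and 100.9 and 102.5 CPM in C4-2, and MAPK10, which encodes a neuronal JNK kinase, were the lowest, at -0.82 ± 0.048 and -1.40 ± 0.18. For genes known as AP-1 targets, only 9 of 18 could be tested, of which 2 were higher and 4 lower (median -0.33). Those named were the cyclin D1 gene CCND1, with 146.3 and 148.5 CPM in LNCaP and 326.0 and 317.0 CPM in C4-2 (log2 fold change 1.12 ± 0.042), VEGFA, which encodes an angiogenic factor, at -2.11 ± 0.043, and the collagenase gene MMP13 at -0.75 ± 0.15. The AP-1 targets MMP1, PLAU and IL6 had 0 tags in all 4 libraries, which allows up to 0.023 CPM in LNCaP and 0.011 CPM in C4-2. With library totals, JDP2 turned from a call as lower to a call as higher (0.79, adjusted p = 1.2e-09). ATF7, NRAS and MMP13 then stood above 0, at 0.16, 0.19 and 0.25, but did not pass (adjusted p = 0.26, 0.14 and 0.24). The call of MAPK10 ended (-0.39, adjusted p = 0.076).

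**Figure D4:**
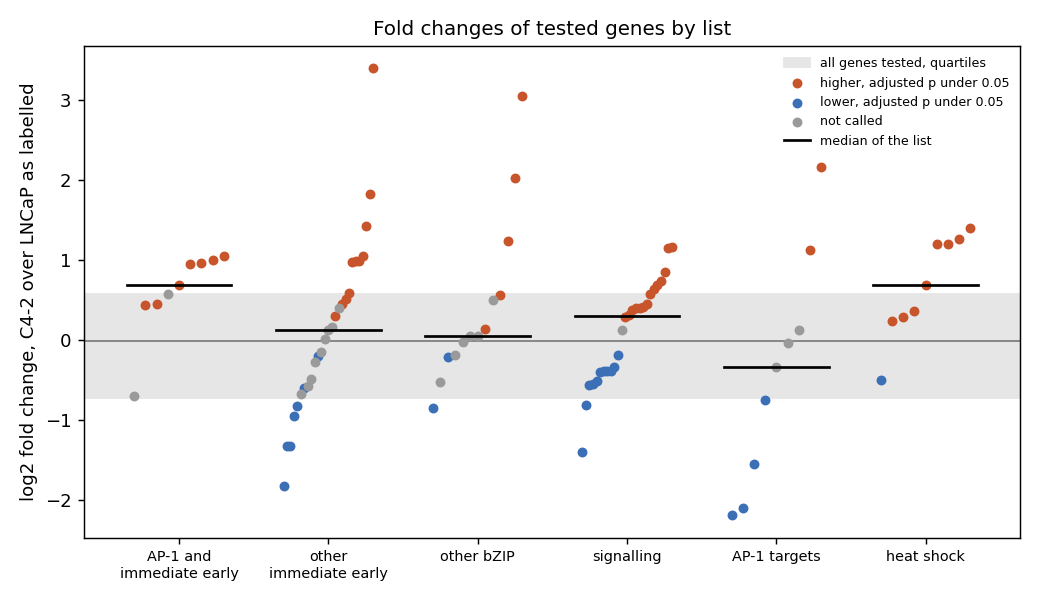
Log2 fold change (C4-2 over LNCaP as labelled) of each tested gene by list, coloured by the edgeR call, with list medians as black bars and the quartiles of all 15975 genes tested as a grey band. The members' median of 0.69 and the heat shock median of 0.69 lie above the upper quartile of 0.57, and the target list has its median at -0.33.

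Heat shock genes were listed as a possible sign of handling or proteotoxic stress, but whether they report stress in these libraries was not tested. Of 9 genes, 8 were higher in C4-2 and 1, HSPB1, was lower (median 0.69). Over all genes tested, 40.2% were called higher and 39.7% lower. The summed level of the 9 heat shock genes was 7081 and 6959 CPM in LNCaP and 12030 and 12260 CPM in C4-2. HSPA8, HSP90AA1 and HSPD1 had the highest levels, with means of 3452, 1408 and 1180 CPM in LNCaP and 4444, 3705 and 2716 CPM in C4-2. HSPA1A, one of a pair of near-identical genes whose tags may be split between copies, was at 41.9 and 47.1 CPM in LNCaP and at 109.9 and 103.1 CPM in C4-2. The part of stress at harvest, and that of the exon share, in the levels of the 10 members was not tested.

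Finally, the genes with the pattern most like that of JUND, the member with the highest RPKM, were MAP4, TMEM242 and CDCP1, at root-mean-square distances of 0.012, 0.013 and 0.014 in centred log2 CPM over 4 libraries. Of 10767 genes compared, 727 lay within 0.1 of JUND, so many genes share this pattern and the likeness is not specific.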

How the data were processed

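Total RNA of the libraries labelled LNCaP (2) and C4-2 (2) was sequenced. The submitters' processing notes name TopHat2 2.0.6, Bowtie and the build hg19 (GRCh37), and the counting tool is not given in the sources used here. Per the file headers, the authors deposited counts of tags and RPKM for both strands of 41351 RefSeq transcript entries. The total behind the deposited RPKM, read from entries of a single exon, was 189870671 and 197627588 tags in LNCaP and 241071154 and 171507354 in C4-2.

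Accessions were named through a RefSeq table (GRCh38.p14, names only), which matched 38974 of 40304. Entries without a symbol held 2.06% to 2.15% of sense tags and were left out. For each symbol the entry with the highest mean share of sense tags was kept. Opposite-strand tags were 1.29% to 1.99%. Coordinates are hg19, counted from 1, and of 22206 genes with a GENCODE gene of the same name on GRCh37, 98.6% overlapped it on the same strand.

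Counts were tested with edgeR 4.0.16 (R 4.3.3): filterByExpr, TMM, glmQLFit and glmQLFTest, cell line as the only term, Benjamini-Hochberg adjustment over 15975 genes, calls at an adjusted p under 0.05. Each SE is the absolute log2 fold change divided by the square root of F. The biological coefficient of variation was 6.42%. On simulated data with 15797 genes the test found 32% of 50 genes changed 1.25-fold. It found 100% of 50 each at 1.5-fold, 2-fold and 4-fold, with 2 false calls. The changed genes were drawn from those above 1 CPM, and far fewer were changed than were called in the data. Every simulated gene was given the same dispersion. The simulation thus does not give the power for members below that level, such as FOSB and EGR1. Permutation tests used scipy 1.17.1. Replicates differed beyond sampling noise (chi-square per degree of freedom 25.6 and 12.7). The labels do not state separate cultures for replicates, and p-values then reflect only library-to-library spread, which may be technical. Counting intervals are exact at 95% and cover counting error only.

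The members and lists were chosen with earlier results of these data known. Text names all 10 members, in each list the 2 highest and 2 lowest called genes with a mean of at least 1 CPM in either line, and 3 genes of similar pattern (mean of at least 5 CPM). CD3E, COL1A2, COL1A1, COL3A1, VWF, LYZ, KLK3, SRF, HSPA1A, HSPA8, HSP90AA1, HSPD1, HSPB1, CCDC85B, ARC, the 6 untested immediate early genes, MMP1, PLAU and IL6 were named outside that rule after their values were seen. Alternatives were DESeq2 1.42.0, library totals, other filters, summed entries, opposite-strand tags added, a replicate block and each library left out.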

Additional observations from a re-analysis of the deposited data

How the results depend on the processing

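Over 11 other settings, FOS, FOSL2, JUN, JUNB, JUND, IER2 and ATF3 kept their call as higher in each, and no member was called lower. With each library left out in turn, 7 to 8 members were higher, 5962 to 6574 of all genes were higher and 5683 to 6196 lower, and 1 to 3 of the other bZIP genes were lower, against 2 with all libraries. Apart from library totals, the fold changes ran from 0.97 to 1.11 for JUND and from 0.35 to 0.48 for ATF3. FOSB passed under no setting, and EGR1 stood at -0.17 to 2.72 with a library left out. An arm left with 1 library is assumed to vary like the other line.

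Scaling to library totals gave 11626 genes higher and 1664 lower, 10 and 0 other bZIP genes, 19 and 2 other immediate early genes, 24 and 0 signalling genes and 4 and 2 AP-1 targets. It turned FOSB to 0.31, JDP2 to 0.79, ATF7 to 0.16, NRAS to 0.19 and MMP13 to 0.25, and of these only JDP2 was called higher. All of these shifts were upward. The median log2 fold change of all genes tested was 1.005 with library totals, against -0.011 with TMM. The part of the exon share in these shifts was not tested. The calls of PPP1R15A (-0.32) and MAPK10 (-0.39) ended with library totals. The stricter filter left 2 AP-1 targets lower, since fewer genes were tested, and adding opposite-strand tags left 1 other bZIP gene lower.

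Replicate numbers are shared by the lines, but deviations of same-numbered libraries had a correlation of -0.032 over genes, so the numbers were not taken to pair the samples. With the replicate block, 7 members were higher and 0 lower, and 6259 of all genes were higher and 6141 lower. FOSL1, EGR1 and FOSB had at most 38 tags in a library. Depth limits FOSL1, while for EGR1 the LNCaP libraries also differed beyond counting error.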
